A study of Mus musculus with 12 samples.

Results

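The genes described here encode 3 families of splicing proteins: the heterogeneous nuclear ribonucleoproteins (hnRNP), the SR proteins and the subunits of splicing factors SF3a and SF3b. Members were the protein-coding genes whose deposited symbol starts with Hnrnp, with Srsf and a digit, or with Sf3a or Sf3b and a digit. This name rule gave 39 genes, 20 of them hnRNP, 11 SR and 8 SF3, among 22736 protein-coding genes and 39174 genes listed. The pseudogene Hnrnpa1l2-ps fits the names but is not protein coding and is no member. RNA came from primary motoneurons of CD-1 mice, all with Smn knocked down, grown in microfluidic chambers that let axons extend away from the cell bodies. The 6 axonal libraries were set against the 6 somatodendritic libraries. No group without the knockdown was analysed here, so both groups share it, and the comparison is between compartments alone. Neither the agent of the knockdown nor the age of the donor animals is stated in the labels. Nothing in the labels tells if replicates came from separate cultures, and the p-values then measure only the spread between libraries, which may be technical. In bulk RNA, fewer contributing cells or axons and less RNA in each cannot be told apart.

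Before introns are removed, hnRNP proteins coat the nascent transcript, and many of them repress splice sites or hold exons back. SR proteins carry a stretch rich in arginine and serine, bind exonic enhancers and recruit the splicing machinery to nearby sites. SF3a and SF3b are the protein complexes of the U2 snRNP that settle it on the branch point. Several hnRNP proteins also leave the nucleus and accompany mRNA to its site of translation, and hnRNP R is known to interact with Smn and to bind the beta-actin mRNA in motoneuron axons. Smn itself helps to assemble the snRNP particles on which these factors act.

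The libraries were shallow. From the deposited confidence bounds, the depth of axonal libraries was estimated at 218000 to 725000 mapped fragments. The estimate was 54800 to 361000 for somatodendritic libraries, with somatodendritic replicate 4 the lowest. Axonal replicates 1 and 2 stood apart, with 17350 and 15222 genes above 0 where the other axonal libraries had 12135 to 13143. Differences are therefore also given for replicates 1 and 2 and for replicates 3 to 6 by themselves, as differences of mean log2 levels with scaling over all 12 libraries, although the labels name no batch. Mitochondrially encoded genes held 9.71 to 53.5% of FPKM in axonal libraries and 10.4 to 12.0% in somatodendritic libraries. The highest share was that of axonal replicate 2, and the next was that of axonal replicate 5, at 26.4%. The 6 neuron markers (Tubb3, Map2, Nefl, Nefm, Snap25 and Stmn2) summed to 1074 to 1426 scaled FPKM in axonal libraries, against 1194 to 1712 in somatodendritic libraries. Of the 6 motoneuron markers listed, Chat and Mnx1 were at 0 in all 12 libraries, and the sum of the 6 was 0 to 9.68 scaled FPKM in axonal libraries, against 0 to 3.04 in somatodendritic libraries. The neuronal label therefore has its markers in these tables, and the motoneuron label has almost none. Astrocyte markers (5 genes) summed to 12.6 to 187.0 scaled FPKM in axonal libraries, against 47.6 to 129.5 in somatodendritic libraries. Red blood cell markers (3 genes) summed to 4.05 to 48.9 in axonal libraries, against 0 to 3.35 in somatodendritic libraries. In the same order, endothelial markers (3 genes) summed to 0.90 to 21.6, against 0 to 2.56, and microglia markers (3 genes) to 0.28 to 43.9, against 2.31 to 21.4. Muscle markers (4 genes) summed to 0 to 15.9, against 0 to 27.0, and fibroblast markers (6 genes) to 4.92 to 8.50, against 0.91 to 11.7. Schwann and oligodendrocyte markers (5 genes) summed to 4.89 to 20.9, against 4.06 to 15.6. The part of these other cells in the values below was not tested.

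Many members have near-identical copies elsewhere in the genome, and these bear on what a gene's value can mean. When a stretch is the same in a gene and in a processed pseudogene, a short read from it can be assigned to either. The following 60-base stretches of coding sequence show this for the hnRNP A1 gene and for the SF3b subunit gene Sf3b4, read from GENCODE M21 transcripts on GRCm38, in the direction of the transcript. Capitals mark a base that differs from the member. The Hnrnpa1 stretch lies at chr15:103241080-103241139 on the plus strand, that of Gm10052 at chr9:123690118-123690177 on the minus strand, and that of Gm5643 at chrX:142297583-142297642 on the plus strand. The Sf3b4 stretch lies at chr3:96172972-96173031 on the plus strand and that of Gm7935 at chr15:74081417-74081476 on the minus strand.
Hnrnpa1: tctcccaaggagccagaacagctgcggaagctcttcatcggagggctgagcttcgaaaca
Gm10052: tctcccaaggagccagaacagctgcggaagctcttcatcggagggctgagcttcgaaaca
Gm5643: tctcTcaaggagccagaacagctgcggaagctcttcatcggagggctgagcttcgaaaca
Sf3b4: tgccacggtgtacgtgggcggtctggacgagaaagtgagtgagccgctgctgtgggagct
Gm7935: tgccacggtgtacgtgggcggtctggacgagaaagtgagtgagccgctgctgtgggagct
The pseudogenes Gm10052 and Gm7935 have 0 differences from their member over these stretches, and Gm5643 has 1.

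All 39 members passed the filter of a mean FPKM of at least 1, and transcripts of the 3 families were present on both sides of the chambers. FPKM is the number of fragments relative to transcript length and to the mapped fragments of the library, so levels of different genes can be compared per length. Levels are given as scaled FPKM, after a common factor per library had been divided out. Mean levels over the 12 libraries ran from 4.97 scaled FPKM for Hnrnpa3 to 166.7 for Hnrnpk, with a median of 23.8 against 6.57 for all 13914 tested genes. Of the members, 32 of 39 (82.1%) were above 0 in all 12 libraries, against 40.1% of all tested genes. The order of the members by mean level was much the same on both sides, with a Spearman rho of 0.902 across the 39 genes. That correlation describes 2 sets of libraries that share gene lengths, annotation and cell source.

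**Figure D1:**
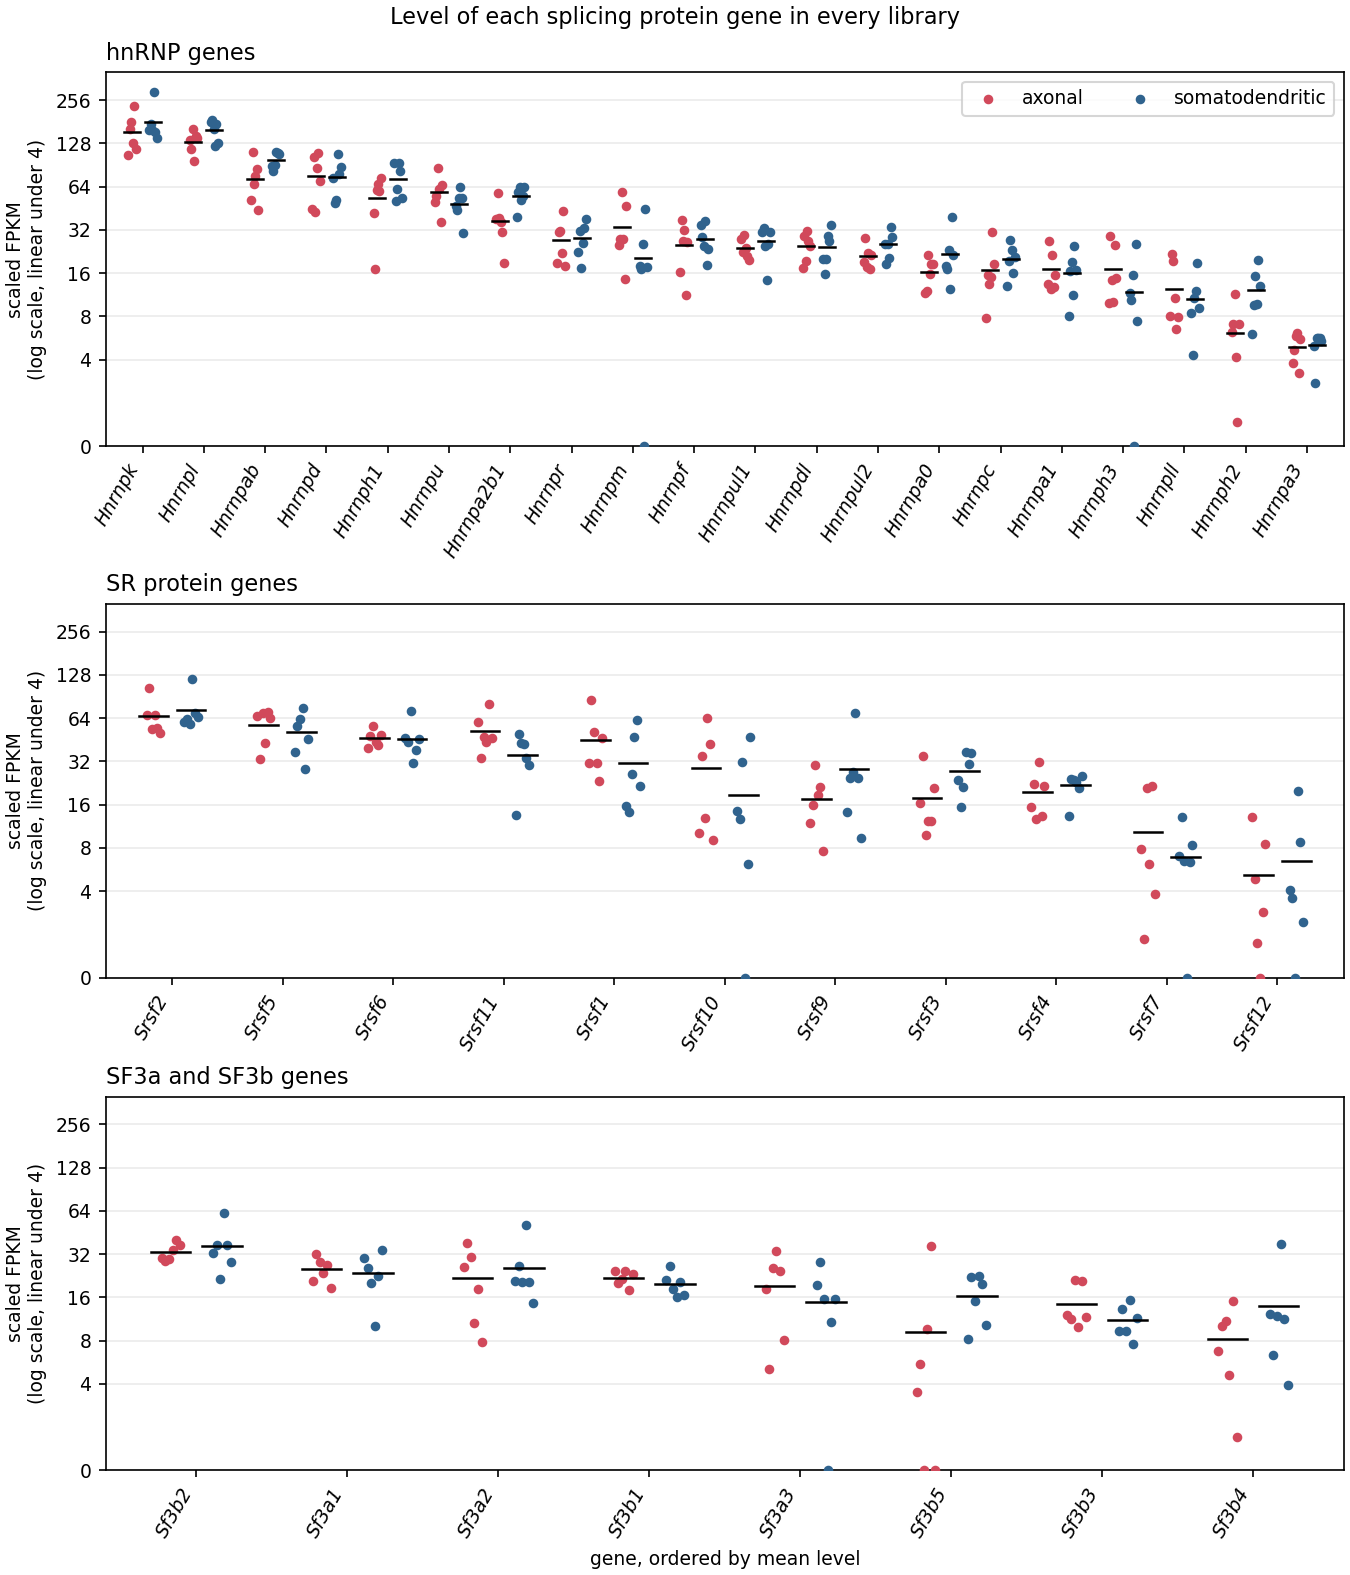
Scaled FPKM of each of the 39 genes in each library, with axonal libraries (red) left of somatodendritic libraries (blue) and a black line at each group's mean. The vertical axis is logarithmic above 4 and linear below. The groups overlap for every gene, from Hnrnpk at the top of the range to Hnrnpa3 at the bottom.

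No member differed between the compartments at an adjusted p of 0.05. In limma over all genes, with Benjamini-Hochberg adjustment, 0 of 39 members were called, and the lowest adjusted p was 0.497. The background was as empty, with 1 of 13914 genes called (0.00719%), that 1 being higher in axonal libraries. Where an unadjusted p below 0.05 was asked for, 4 of 39 members passed, all 4 lower in axonal libraries and 0 higher. Over all tested genes the same threshold took 8.9%, of which 2.6% were lower and 6.3% higher. The exact rank-sum test, run as an alternative, called 0 members, but it could hardly have called any gene. With 6 libraries per side its smallest possible p passes the adjustment only if far more genes are wholly separated than were here. Its result therefore adds nothing to that of limma. For no member did the 6 axonal values lie wholly apart from the 6 somatodendritic ones, which 0.417% of all tested genes did upward and 0.295% downward.

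The log2 fold changes, axonal minus somatodendritic, lay between -1.77 (Sf3b5) and 1.16 (Hnrnpm). On this log2 scale 23 of 39 members (59%) were below 0, against 39.4% of all tested genes, whose median was 0.18. That count depends on the scaling: it was 30 with FPKM as deposited, 31 with a common sum of FPKM, 28 with a common sum over nuclear-encoded protein-coding genes and 26 with quantile normalization, and the median of all tested genes was then 0.0010, -0.07, 0.05 and 0.00095. Relative to the median of 0.18, the median over the members was -0.24 and 28 of 39 lay below 0.18. This background was not matched for level. The scaling used genes above 0 in all 12 libraries, which 82.1% of members were, against 40.1% of all tested genes. With the filter at 5 in place of 1, the background median was 0.11, the members' relative median -0.17, and 26 lay below. A pseudocount of 5 gave 0.10, -0.16 and 26. Without a filter the same values were 0.21, -0.28 and 30, and a pseudocount of 0.1 gave 0.25, -0.31 and 30. Between libraries of 1 compartment, the members' median level relative to all tested genes had an SD of 0.28. This is the spread of single libraries, which is wider than that of a difference between means of 6 libraries. By family, 14 of 20 hnRNP genes, 5 of 11 SR genes and 4 of 8 SF3 genes were below 0. Relative to all tested genes, the family medians were -0.34 for hnRNP, -0.13 for SR and -0.14 for SF3, and the SR median was above 0 with replicates 1 and 2 refitted alone (0.12) and without axonal replicate 4 (0.09). The median of all tested genes was 0.04 without the shallow somatodendritic replicate 4, and 0.17 to 0.20 without any other single library. Without somatodendritic replicate 4, 25 of 39 members were below 0, and the median over all members was -0.15 relative to all tested genes. It was -0.16 without axonal replicates 1 and 2, and -0.09 with all 3 of these libraries left out.

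The intervals say how large a difference could have gone unseen. For 20 of 39 members (51.3%) the 95% interval of the fold change lay within 2-fold in either direction, which held for 12.3% of all tested genes. Of those 20, 13 were hnRNP genes, 4 SR genes and 3 SF3 genes. Among the 13 was Hnrnpa3, whose deposited lower bound was 0 in every library. Leaving out 1 library moved the log2 fold change by over 1.5 times, or changed its sign, in 33 of 39 members, all but Hnrnpa2b1, Hnrnpab, Hnrnph2, Hnrnpl, Srsf3 and Sf3b5. The median SD between libraries on the log2 scale was 0.48 for the members in both compartments, while over all tested genes it was 0.91 in axonal libraries, against 0.89 in somatodendritic libraries. Neither the intervals nor the SDs were compared at matched levels, and the median level was 23.8 scaled FPKM for the members, against 6.57 for all tested genes.

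**Figure D2:**
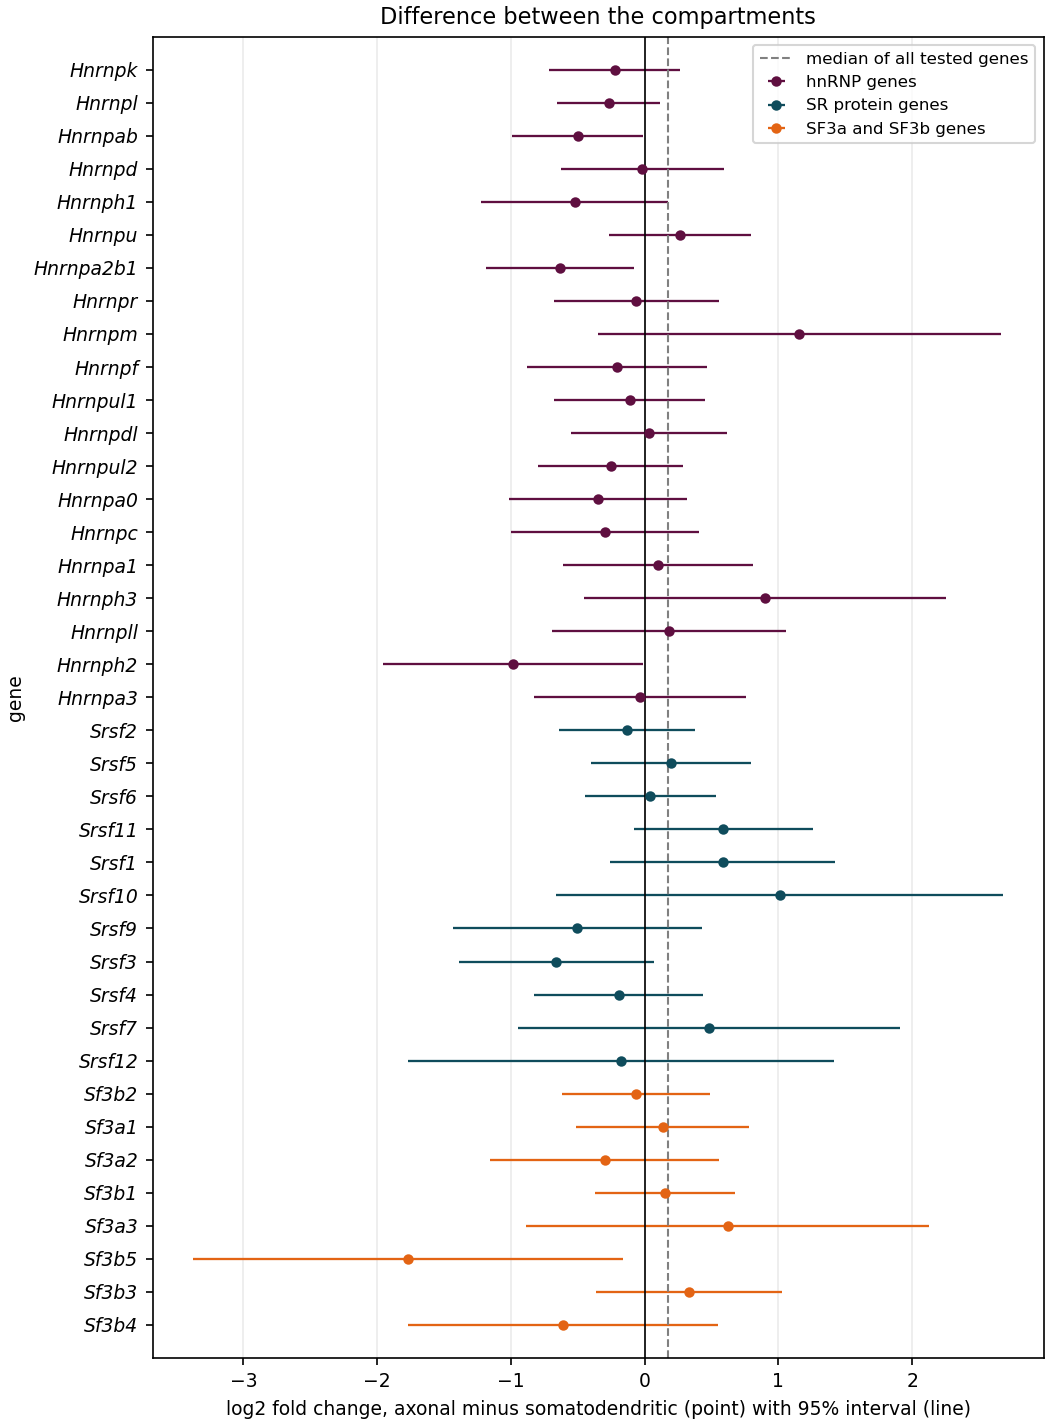
Log2 fold change of each gene, axonal minus somatodendritic, with its 95% interval from limma, grouped by family and ordered by mean level within each. The dashed grey line is the median of all tested genes, 0.18. Intervals are narrow for abundant genes such as Hnrnpl and wide for Hnrnpm, Srsf10 and Sf3b5.

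Summed over a family, hnRNP transcripts were at 829.6 ± 109.8 scaled FPKM in axonal libraries, against 938.7 ± 81.5 in somatodendritic libraries (SD over n = 6 per side). The SR sum was 366.8 ± 32.7 in axonal libraries, against 346.3 ± 70.9 in somatodendritic libraries, and the SF3 sum was 153.4 ± 30.4 in axonal libraries, against 162.1 ± 32.01 in somatodendritic libraries. Each sum overlapped between the compartments. The share of all nuclear-encoded protein-coding FPKM that the 39 genes held was 0.452 to 0.673% in axonal libraries, against 0.649 to 0.943% in somatodendritic libraries. Axonal replicates 3 and 5 lay above the lowest somatodendritic library, and the highest somatodendritic value was that of the shallow replicate 4. Without it, the somatodendritic range ended at 0.738%.

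**Figure D3:**
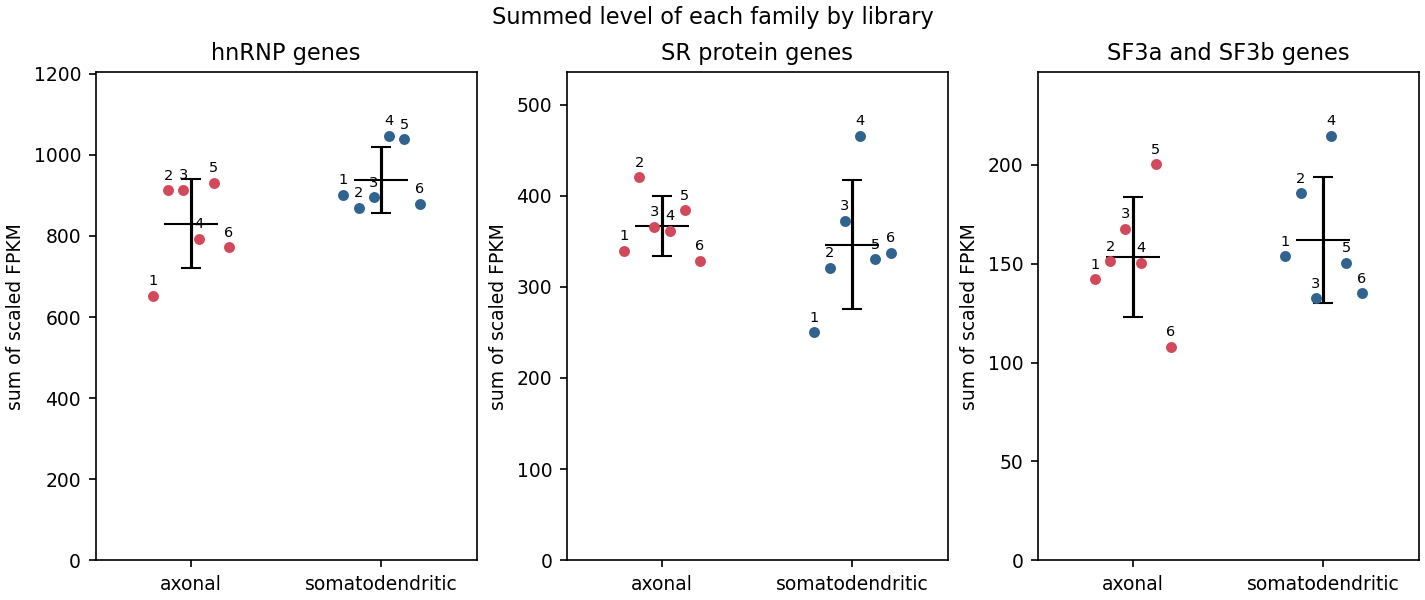
Sum of scaled FPKM over the 20 hnRNP, 11 SR and 8 SF3 genes in each library, with axonal libraries on the left of each panel and the replicate number above each point. Black lines are the mean and SD of 6 libraries. The groups overlap in all 3 panels, and somatodendritic replicate 4 is the highest library of each.

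Among the hnRNP genes, Hnrnpk was the most abundant. Its protein, hnRNP K, binds C-rich stretches through KH domains. The gene (chromosome 13, 58391142 to 58403343) had 105.8, 145.0 and 233.0 scaled FPKM as lowest, median and highest axonal values, against 139.5, 157.8 and 291.9 in somatodendritic libraries. Axonal replicates 1, 4 and 6 lay below all somatodendritic libraries and the other 3 among them, and the highest somatodendritic value was replicate 4. On the log2 scale Hnrnpk differed by -0.23 ± 0.23 (SE), with a 95% interval of -0.71 to 0.26 (limma adjusted p = 0.778), and by -0.36 without axonal replicate 5 and -0.11 without somatodendritic replicate 4. Hnrnpl, whose protein binds CA repeats, came second (chromosome 7, 28808541 to 28822266). It had 95.8, 137.0 and 160.5 scaled FPKM in axonal libraries, against 123.6, 167.4 and 185.1 in somatodendritic libraries. Its interval, -0.65 to 0.12, was the narrowest of the 39 and reached neither a 2-fold fall nor a 2-fold rise (limma adjusted p = 0.676).

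The hnRNP genes of smallest p were all lower in axonal libraries, and none passed the adjusted threshold. Hnrnpa2b1 encodes hnRNP A2/B1, known for carrying mRNAs with a trafficking element into neuronal and glial processes (chromosome 6, 51460434 to 51469894). It had 37.9, 57.4, 38.6, 36.5, 30.8 and 18.8 scaled FPKM in axonal replicates 1 to 6, against 39.3, 58.5, 63.2, 51.8, 55.1 and 63.8 in somatodendritic replicates 1 to 6. All axonal values but that of replicate 2 lay below the lowest somatodendritic value. The mean was 36.7 ± 12.6 in axonal libraries, against 55.3 ± 9.12 in somatodendritic libraries (SD over n = 6 per side). This is a log2 fold change of -0.63 ± 0.26 (SE), with a 95% interval of -1.19 to -0.08 and a limma adjusted p of 0.497. The difference of mean log2 values was -0.04 in replicates 1 and 2 and -0.93 in replicates 3 to 6.

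Hnrnpab encodes hnRNP A/B, also known as CBF-A, which binds the same kind of trafficking element (chromosome 11, 51600100 to 51606847). It had 43.8, 71.0 and 111.0 scaled FPKM as lowest, median and highest axonal values, against 82.7, 99.2 and 112.3 in somatodendritic libraries. Axonal replicates 2 and 5 reached the somatodendritic range and the other 4 stayed below it. Hnrnpab had a log2 fold change of -0.50 ± 0.23 (SE), with an interval of -0.99 to -0.01 and a limma adjusted p of 0.549. Replicates 1 and 2 taken alone gave -0.18, and replicates 3 to 6 gave -0.66. Of its exonic bases, 29.1% lie under Phykpl on the opposite strand, and no source used here gives the strand of reads.

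The 4th member at an unadjusted p below 0.05 beside these and Sf3b5 was Hnrnph2, chosen for mention after its values were seen. Hnrnph2, a close relative of Hnrnph1 on the X chromosome, had 1.12, 6.64 and 11.4 scaled FPKM in axonal libraries, against 6.08, 11.4 and 19.7 in somatodendritic libraries. Its log2 fold change was -0.99 with an interval of -1.96 to -0.02 (limma adjusted p = 0.551). Replicates 1 and 2 by themselves gave -0.18, and replicates 3 to 6 gave -1.39. It shares 55.1% of its coding windows with 1 copy, and with that copy's level added the log2 fold change was -0.65. That copy, Gm8775, was above 0 in only 2 of 12 libraries, both axonal, and reached 6.90 scaled FPKM.

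Hnrnpr showed no difference beyond its error, which was wide. The gene (chromosome 4, 136310942 to 136345981) had 17.9, 26.5 and 43.1 scaled FPKM as lowest, median and highest axonal values, against 17.5, 28.9 and 38.1 in somatodendritic libraries. The means were 27.4 ± 9.63 in axonal libraries, against 28.1 ± 7.58 in somatodendritic libraries (SD over n = 6 per side). Their log2 difference was -0.06 ± 0.29 (SE), with an interval of -0.68 to 0.56 that leaves room for a fall or rise of less than 2-fold (limma adjusted p = 0.962). The deposited bounds correspond to few effective fragments, 1.19 to 14.6 per axonal and 0.104 to 4.69 per somatodendritic library. Outside axonal replicate 1 and somatodendritic replicate 1, the lower bound deposited with each value was 0.

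Hnrnpm had the highest fold change of the 39 genes, and 1 library moved it most. Its protein binds GU-rich sequences and is known as an alternative splicing regulator (chromosome 17, 33646233 to 33686860). It had 25.1, 27.5, 58.5, 27.8, 14.6 and 46.9 scaled FPKM in axonal replicates 1 to 6, against 17.9, 17.1, 25.5, 0, 45.0 and 17.5 in somatodendritic replicates 1 to 6. Axonal replicates 3 and 6 lay above all somatodendritic libraries, and the other 4 lay among them. For Hnrnpm the fit gave a log2 fold change of 1.16 ± 0.71 (SE), with an interval of -0.35 to 2.66 (limma adjusted p = 0.644). Without the shallow somatodendritic replicate 4, which lists the gene at 0, it was 0.36. March2 covers 14.7% of the exonic bases of Hnrnpm on the same strand.

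The other 13 hnRNP genes had adjusted p-values between 0.651 and 0.992. Hnrnpd (AUF1, a protein that binds AU-rich elements) was at 75.9 ± 28.5 scaled FPKM in axonal libraries, against 74.8 ± 22.2 in somatodendritic libraries (SD over n = 6 per side). Hnrnph1, which binds runs of G, was at 53.4 ± 20.6 in axonal libraries, against 72.6 ± 20.1 in somatodendritic libraries, with a log2 fold change of -0.52, and -0.23 without axonal replicate 2. Hnrnpu, the scaffold attachment factor hnRNP U, was at 59.1 ± 16.6 in axonal libraries, against 48.6 ± 11.3 in somatodendritic libraries, with a log2 fold change of 0.27, and 0.14 without somatodendritic replicate 6. These 3 genes were the most abundant of the 13, and none of their intervals excluded 0.

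The C-type gene Hnrnpc, whose protein packages nascent transcripts and binds runs of U, was at 16.9 ± 7.67 scaled FPKM in axonal libraries, against 19.9 ± 5.05 in somatodendritic libraries (SD over n = 6 per side). Hnrnpa0, which binds AU-rich elements, had a log2 fold change of -0.35, and Hnrnpf, which binds runs of G as Hnrnph1 does, had -0.21, and -0.0095 without axonal replicate 5. Hnrnpul1 and Hnrnpul2, relatives of Hnrnpu, had -0.11 and -0.25. Hnrnpa1, a classical repressor of splice sites, had 0.10, and Hnrnpdl, a relative of Hnrnpd, had 0.03. Hnrnpll, a relative of Hnrnpl known for splicing of Ptprc in lymphocytes, had 0.18. Hnrnpa3, close to Hnrnpa1 and Hnrnpa2b1 in sequence, had -0.03. Hnrnph3 had 0.90, and 0.23 without somatodendritic replicate 4, which lists it at 0. The 95% intervals of these 10 genes all included 0.

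Among the SR genes, Srsf2, Srsf5 and Srsf6 were the most abundant. Srsf2, also called SC35, is a marker protein of nuclear speckles (chromosome 11, 116849901 to 116853094). It had 50.6, 60.8 and 104.1 scaled FPKM in axonal libraries, against 58.6, 64.4 and 119.8 in somatodendritic libraries. Each compartment had a lone high library, axonal replicate 2 and somatodendritic replicate 4, without which the log2 fold change was -0.26 and -0.017. Between the compartments Srsf2 differed by -0.13 ± 0.24 (SE) on the log2 scale, with an interval of -0.64 to 0.38 (limma adjusted p = 0.888). Opposite-strand genes, of which Mettl23 is the largest, lie over 25.3% of its exonic bases.

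Srsf5 (chromosome 12, 80945504 to 80950507) had 33.3, 65.5 and 70.2 scaled FPKM in axonal libraries, against 28.5, 51.2 and 74.8 in somatodendritic libraries. Srsf6 (chromosome 2, 162931528 to 162937121) had 39.8, 46.0 and 56.1 in axonal libraries, against 31.0, 44.5 and 71.6 in somatodendritic libraries. In both genes the axonal range lay inside the somatodendritic one. Their log2 fold changes were 0.20, with an interval of -0.40 to 0.79, and 0.04, with an interval of -0.44 to 0.53. The proteins of both genes bind exonic enhancers.

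Besides Hnrnpm, the members of smallest p with higher axonal values were Srsf11 and Srsf1. Srsf11 (chromosome 3, 158010473 to 158036639), an SR protein known to promote inclusion of neuronal microexons, had 60.3, 33.8, 47.1, 44.0, 80.4 and 46.3 scaled FPKM in axonal replicates 1 to 6. The somatodendritic replicates 1 to 6 had 13.6, 49.8, 43.1, 42.6, 33.8 and 30.1. Axonal replicates 1 and 5 lay above all somatodendritic libraries, and the other 4 lay among them. The log2 fold change was 0.59 ± 0.31 (SE), with an interval of -0.08 to 1.26 (limma adjusted p = 0.604), and it was 0.34 without somatodendritic replicate 1. Replicates 1 and 2 alone gave 0.76, and replicates 3 to 6 gave 0.50.

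Srsf1, the founding SR protein SF2/ASF (chromosome 11, 88047373 to 88053755), had 31.4, 85.4, 51.01, 31.1, 23.4 and 47.0 scaled FPKM in axonal replicates 1 to 6, against 15.6, 14.3, 26.4, 47.5, 62.0 and 21.7 in somatodendritic replicates 1 to 6. Only axonal replicate 2 lay above every somatodendritic library. The log2 fold change was 0.58 ± 0.40 (SE), with an interval of -0.26 to 1.43 (limma adjusted p = 0.680). Replicates 1 and 2 alone gave 1.73 and replicates 3 to 6 gave 0.01, and leaving out axonal replicate 2 gave 0.38.

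Among the other 6 SR genes, log2 fold changes ran from -0.66 for Srsf3 to 1.01 for Srsf10. Srsf3, the smallest SR protein, was at 17.8 ± 9.32 scaled FPKM in axonal libraries, against 27.5 ± 8.79 in somatodendritic libraries (SD over n = 6 per side), with an interval of -1.39 to 0.07 and a limma adjusted p of 0.601. Within replicates 1 and 2 its log2 fold change was 0.31, and within replicates 3 to 6 it was -1.15. Srsf9 was at 17.6 ± 7.86 in axonal libraries, against 28.3 ± 21.5 in somatodendritic libraries, where the shallow replicate 4 had 69.9. Its log2 fold change was -0.50, and it was -0.23 without somatodendritic replicate 4 and -0.75 without somatodendritic replicate 6. Srsf4 was at 19.5 ± 7.14 in axonal libraries, against 21.8 ± 4.37 in somatodendritic libraries. Srsf10, a splicing repressor when dephosphorylated, had 9.12 to 63.8 scaled FPKM in axonal libraries and 0 to 47.1 in somatodendritic libraries. Its log2 fold change was 0.27 without somatodendritic replicate 4. Srsf7, an SR protein with a zinc knuckle, had 1.77 to 21.6 in axonal libraries, against 0 to 13.04 in somatodendritic libraries, with a log2 fold change of 0.48, and -0.08 without somatodendritic replicate 4. Srsf12, a relative of Srsf10, had 0 to 13.1 in axonal libraries, against 0 to 20.0 in somatodendritic libraries, each side listing it at 0 in 1 library.

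Among the SF3 genes, Sf3b2, Sf3a1 and Sf3a2 were the most abundant per length. Sf3b2, an SF3b subunit that contacts the pre-mRNA near the branch point (chromosome 19, 5273923 to 5295455), had 28.7, 32.02 and 40.2 scaled FPKM in axonal libraries, against 21.6, 34.8 and 61.6 in somatodendritic libraries. Its log2 fold change was -0.06, with an interval of -0.62 to 0.49. Sf3a1 (chromosome 11, 4160350 to 4182541), the largest SF3a subunit, had 18.5, 25.3 and 32.2 in axonal libraries, against 10.1, 24.2 and 34.4 in somatodendritic libraries. Its log2 fold change was 0.13, with an interval of -0.51 to 0.78. For this pair too the axonal range lay inside the somatodendritic one, whose extreme at 1 end was the shallow replicate 4.

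Sf3a2 (chromosome 10, 80798198 to 80804924), an SF3a subunit, had 7.86, 22.2 and 38.0 scaled FPKM in axonal libraries, against 14.6, 20.8 and 50.97 in somatodendritic libraries. Its log2 fold change was -0.30, with an interval of -1.16 to 0.56, and it was -0.066 without axonal replicate 6, -0.12 without somatodendritic replicate 4 and -0.49 without axonal replicate 2. Sf3b1, the branch point subunit bound by splicing inhibitors, is among the longest members and had 25 to 167 effective fragments per axonal and 6 to 62.7 per somatodendritic library. It was at 22.0 ± 2.54 scaled FPKM in axonal libraries, against 19.9 ± 3.87 in somatodendritic libraries (SD over n = 6 per side). Its log2 fold change was 0.15, with an interval of -0.37 to 0.68, the narrowest of the SF3 genes. Sf3b3, a large scaffold subunit, was at 14.5 ± 5.11 scaled FPKM in axonal libraries, against 11.1 ± 2.88 in somatodendritic libraries. Sf3b4, an RNA-binding subunit, was at 8.19 ± 4.86 in axonal libraries, against 14.0 ± 12.2 in somatodendritic libraries, where the shallow replicate 4 had 37.9. Its log2 fold change was -0.61, and -0.30 without somatodendritic replicate 4. It was -0.29 without axonal replicate 6 and -0.87 without somatodendritic replicate 6. The deposited lower bound of Sf3b4 was 0 in every library. Sf3a3 had a log2 fold change of 0.62, and -0.11 without somatodendritic replicate 4, which lists it at 0.

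Sf3b5, a small SF3b subunit (chromosome 10, 13008450 to 13009182), had the lowest fold change, on few fragments. It had 3.65, 5.51, 0, 9.66, 36.7 and 0 scaled FPKM in axonal replicates 1 to 6, against 8.18, 22.1, 15.0, 22.6, 19.9 and 10.4 in somatodendritic replicates 1 to 6. Behind these values stood 3, 1, 0, 1.99, 6 and 0 effective fragments in axonal libraries, against 3, 6, 3, 1, 4 and 1.99 in somatodendritic replicates. Axonal replicate 5 was the highest of all 12 libraries, and 2 axonal libraries listed the gene at 0. The log2 difference was -1.77 ± 0.76 (SE), with an interval of -3.37 to -0.16 (limma adjusted p = 0.517). With 1 library left out it lay between -2.39 (axonal replicate 5) and -1.31 (axonal replicate 6), and it was -2.90 with a pseudocount of 0.1 and -0.96 with a pseudocount of 5, in place of 1. A further SF3b subunit, Sf3b6, stands in the tables under the symbol 0610009D07Rik, outside the name rule. It had 3.62, 9.76 and 25.7 scaled FPKM in axonal libraries, against 0, 7.37 and 42.5 in somatodendritic libraries (limma adjusted p = 0.834).

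The deposited bounds give the precision of single values. An effective number of fragments was taken as the count whose Poisson error, at 2 SD, gives the deposited upper bound. For a gene with several transcripts it is lowered further by the uncertainty of assigning fragments to isoforms, and is then not the number of fragments behind the value. The median over the 39 members was 25.5 effective fragments in axonal replicate 1 and 3.44 to 7.27 in axonal replicates 2 to 6. It was 0.70 in somatodendritic replicate 4 and 5.24 to 9.17 in the other 5 somatodendritic libraries. In somatodendritic replicate 4, 35 of 39 members had fewer than 5 effective fragments, and 5 (Hnrnpm, Hnrnph3, Srsf7, Srsf10 and Sf3a3) were listed at 0. No other library listed more than 1 member at 0. These bounds cover counting and assignment error within a library only.

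**Figure D4:**
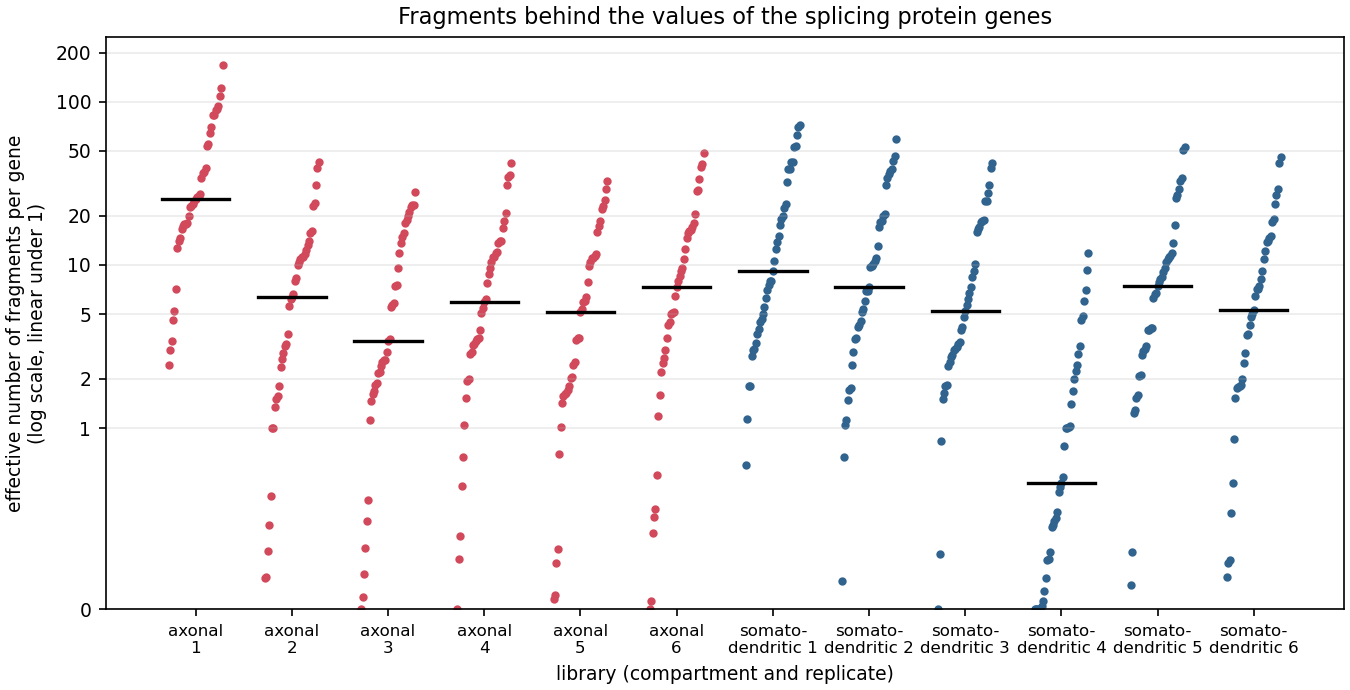
Effective number of fragments of each of the 39 values in each library, sorted within a library, with axonal libraries (red) left of somatodendritic libraries (blue) and a black line at the median. The vertical axis is logarithmic above 1 and linear below. Medians are 25.5 in axonal replicate 1 and 0.70 in somatodendritic replicate 4, with the other libraries between 3.44 and 9.17.

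Copies add a second limit on the levels. The longest coding sequence of each member was cut into overlapping windows of 50 bases, and 20 of 39 members had at least 1 window that also occurs in transcripts of another gene elsewhere in the genome. In 12 members over 10% of the windows did so, and 19 members had none. The matching genes numbered 96, of which 90 were annotated as pseudogenes and 58 had a row of their own in the tables. Hnrnpa3 shared 97.7% of its windows with 43 such genes, Hnrnpf 96.1%, Srsf3 89.4%, Hnrnpa1 80.8% with 19 genes, and Hnrnpk 75.1%. No source used here says how reads with several matches were treated.

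In the tables the copies have levels of their own. Gm10052, whose stretch printed above was chosen for its exact match to Hnrnpa1, had 10.9, 28.1 and 54.6 scaled FPKM as lowest, median and highest axonal values. In somatodendritic libraries it had 12.1, 14.9 and 38.7. Hnrnpa1 itself had 12.5, 14.5 and 27.0 in axonal libraries, and 8.05, 16.8 and 24.8 in somatodendritic libraries. The median of the pseudogene was thus above that of the gene in axonal libraries and below it in somatodendritic libraries. Gm7964, a pseudogene with 69.2% of the windows of Hnrnpk, had medians of 80.1 scaled FPKM in axonal libraries, against 91.7 in somatodendritic libraries. Gm7935, the Sf3b4 pseudogene shown above, was above 0 in 8 of 12 libraries, with medians of 0.69 in axonal libraries, against 4.08 in somatodendritic libraries.

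The copies that share at least 10% of a member's windows were also added to that member. With copies, the mean over 12 libraries was 28.5 scaled FPKM for Hnrnpa3, 5.74 times that of the gene alone, and 61.2 for Hnrnpa1, 3.68 times. The same ratio was 2.02 for Hnrnpf, 1.75 for Hnrnpc, 1.62 for Srsf3 and 1.5 for Hnrnpk. Hnrnpa1 then stood at rank 8 of 39 by mean level, against rank 30 alone. Its mean was then 74.8 ± 40.02 scaled FPKM in axonal libraries, against 47.6 ± 18.4 in somatodendritic libraries (SD over n = 6 per side), and the log2 fold change was 0.56 (limma adjusted p = 0.641). The log2 fold change was 0.28 for Hnrnpa3 and 0.05 for Hnrnpf, which had been -0.03 and -0.21 alone. No member was called with the copies added. These sums add values per length of different transcripts, so they are no measure of the gene's own level.

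**Figure D5:**
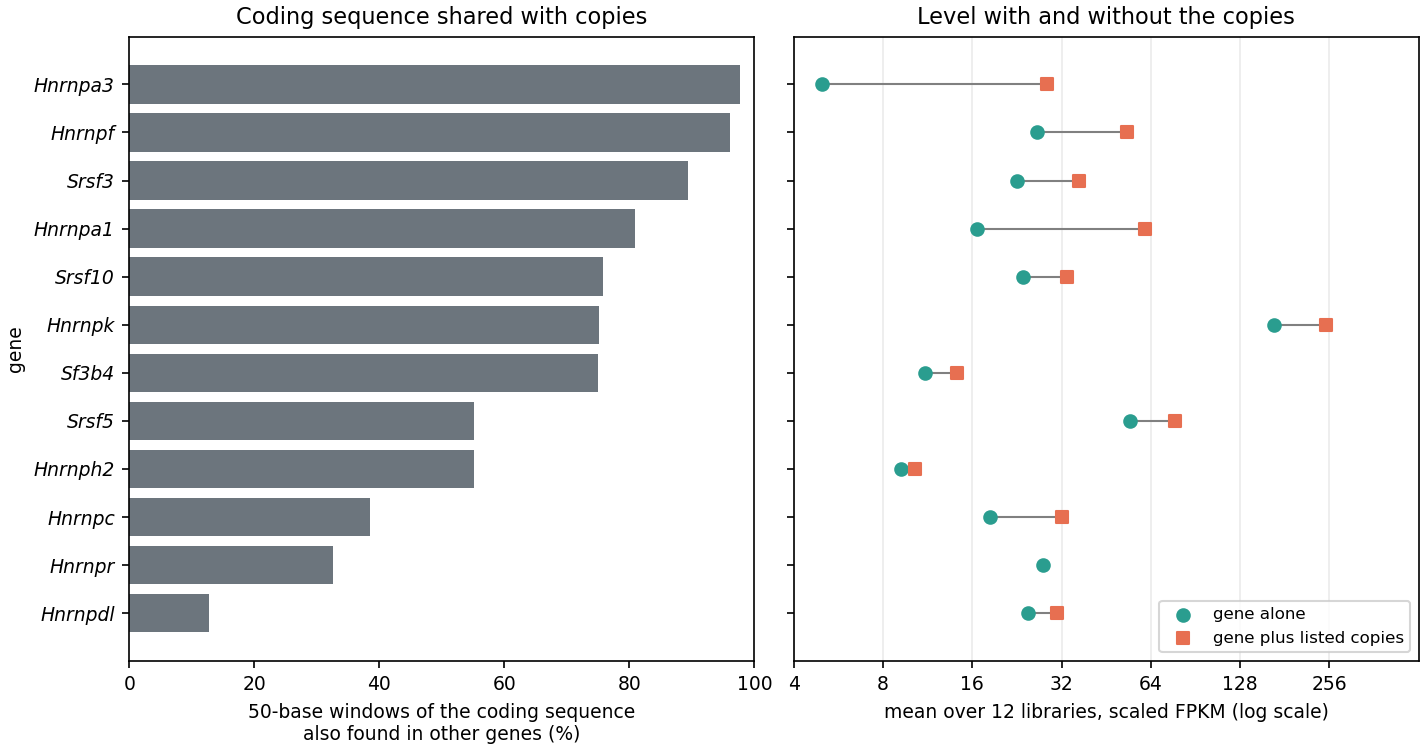
Left, the share of 50-base coding windows that also occur in other genes, for the 12 members with over 10%. Right, the mean level over 12 libraries of the gene alone (circle) and with its listed copies added (square), on a logarithmic axis. Hnrnpa3 and Hnrnpa1 move furthest, and Hnrnpr has no listed copy to add.

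Other genes can also overlap a member directly. In GENCODE M21, 18 of 39 members had at least 1 exonic base under another gene, and 4 had over 20%. These 4 were Srsf4 (43.0%, under Gm12992 on the opposite strand), Hnrnpab, Hnrnpf (26.5%) and Srsf2. Without the strand of the reads, fragments of such a pair cannot be told apart in the overlap.

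Beyond the 39 genes, 82 other splicing genes were listed, of which 80 were tested. None was called by limma, 6 were higher and 2 lower at an unadjusted p below 0.05, and 47 lay above and 33 below 0, where 8426 of all 13914 tested genes (60.6%) lay above. Their median was -0.0044 relative to all tested genes, whose own median fell to 0.04 without the shallow somatodendritic replicate 4. Ptbp1, a repressor of neuronal exons, had the smallest p of the 80. It was at 56.5 ± 26.1 scaled FPKM in axonal libraries, against 26.5 ± 11.0 in somatodendritic libraries (SD over n = 6 per side, log2 fold change 1.04, limma adjusted p = 0.423). Ptbp2 was at 19.0 ± 4.54 in axonal libraries, against 21.9 ± 4.21 in somatodendritic libraries.

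The partners of the 3 families gave a mixed order. Of the 4 genes for U2 auxiliary and branch point factors, which act beside SF3a and SF3b, U2af2, Sf1 and Puf60 lay below 0 and U2af1 above, at log2 fold changes of -0.57, -0.52, -0.28 and 0.84. Of the 14 SR-related proteins and kinases that phosphorylate SR proteins, 10 lay above 0, where 60.6% of all tested genes did, with Srpk1 at 1.29 and Clk1 at 1.62. Clk1 and Srpk1 were each listed at 0 in 1 somatodendritic library. U2af1 was above 0 in 10 of 12 libraries, and those at 0 were somatodendritic. Of the 16 further hnRNP-type proteins, 9 lay above and 7 below 0, with Syncrip, the closest relative of Hnrnpr, at 0.43 and Tardbp at -0.77. The limma adjusted p-values of the genes named here lay between 0.531 (Clk1) and 0.779 (Puf60).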

How the data were processed

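Tables of 12 libraries were used, 6 axonal and 6 somatodendritic, grouped and numbered by their titles. The authors deposited gene FPKM with lower and upper confidence bounds, per the file headers. The submitters' processing notes name FastQC 0.10.1, Cufflinks 2.2.1 and the build GRCm38. No source used here gives the annotation release, the read strand or how multiple matches were handled. The labels' protocols name total RNA and a low-input extraction kit.

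The size factor of a library was the median of its ratios to the geometric mean, taken over 5607 genes above 0 in all 12 libraries. A filter on mean FPKM, at least 1, left 13914 of 39174 genes. Values were tested as log2(scaled FPKM + 1), which understates the change of low genes, with limma 3.58.1 in R 4.3.3 (mean-variance trend, robust moderation, two-sided, Benjamini-Hochberg over all tested genes at 0.05). The code of the fit was checked on simulated data with the same dispersion for every gene, which does not measure its power in these libraries. Depth and effective fragments came from the upper bounds, with the half-width read as 2 SD of a Poisson count. In genes with 1 transcript and over 1000 exonic bases, 68.1 to 83.3% of values up to 50 fragments lay within 0.05 of a whole number. All members but Hnrnpa0 and Sf3b5 have several transcripts in GENCODE M21, for which fragments cannot be recovered so, and no count model was fitted. Copies and overlaps came from GENCODE M21, in which all 39 members were found, with Python 3.11.15, pandas 2.3.3 and numpy 2.4.6, and figures with matplotlib 3.10.9.

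Values were given by rule for the 3 members of highest mean in each family, the 3 of smallest p in each direction, any called member and Hnrnpr. The members, lists and alternatives were chosen with earlier results of these data known. Adding the copies to their member was chosen in the present work, after the tables had been examined. The fit was also repeated with other scalings, pseudocounts and filters, with a rank-sum test that is exact, with the replicate block, with weights per library, and with libraries or sets of replicates left out.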

Additional observations from a re-analysis of the deposited data

Results flagged for a closer look

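Of 78 groups of 6 values, 1 group per member and compartment, 9 had a value whose gap to its nearest neighbour passed Dixon's 95% critical value as a share of the whole range of the group. For normally distributed values chance gives about 1 in 20 groups, and the values here were not checked for that. Of the 9 values, 5 were from somatodendritic replicate 4, the shallowest library. They were Hnrnpk at 291.9 scaled FPKM, with the next value at 174.7, Srsf2 at 119.8 (next 69.6), Srsf9 at 69.9 (next 27.0), Sf3a2 at 50.97 (next 26.7) and Sf3b4 at 37.9 (next 12.2). The effective fragments of these 5 values were 4.86 for Hnrnpk, 2.43 for Srsf2, 1.03 for Srsf9, 0.70 for Sf3a2 and 0.485 for Sf3b4. The part of depth in them was not tested. In axonal libraries, Srsf2 was at 104.1 scaled FPKM in replicate 2 (next 67.7) and Sf3b5 at 36.7 in replicate 5 (next 9.66). The remaining pair were low values, Srsf4 at 13.4 in somatodendritic replicate 1 (next 20.97) and Hnrnpa3 at 2.90 in somatodendritic replicate 2 (next 4.96).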

How the results depend on the processing

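In limma and in the exact rank-sum test, 0 members were called under all 30 alternatives, and the lowest adjusted p of a member lay between 0.356 and 0.784. The rank-sum test, limited by 6 libraries per side, could hardly have called any gene, so its 0 carries no weight. The median of the members relative to all tested genes stayed below 0, from -0.37 to -0.15 with 1 library left out and from -0.34 to -0.09 under the others. At an unadjusted p below 0.05, the 4 members lower became 1 to 6 and the 0 higher became 0 or 1, with 1 under array weights, in replicates 1 and 2 alone, and without axonal replicate 2, somatodendritic replicate 2 or somatodendritic replicate 5. Over all genes, where 1 was called, the count was 3 with a pseudocount of 0.1, 5 with array weights, 3 with plain moderation, 0 with the rank-sum test, 6 with the set of replicates (1 and 2 against 3 to 6) as a term, 7 in replicates 3 to 6 alone, 0 in replicates 1 and 2 alone, 7 without axonal replicates 1 and 2, 5 when somatodendritic replicate 4 was left out as well, and 1 to 11 with 1 library left out. The highest was without axonal replicate 6, and leaving out axonal replicate 1, 2 or 4 gave 3, 2 and 2. Adding the copies changed no call. With the replicate number as a block, 5 genes and 0 members were called. Deviations of same-numbered libraries correlated at 0.24, 0.0463, 0.02, 0.00961, 0.0719 and -0.000484 for numbers 1 to 6, so the numbers were not read as pairs, and 3 of 6 numbers correlated best with their own. Changes of sign among members were all between uncalled values, and the cause was not tested. With FPKM as deposited, the log2 fold change was -0.11 for Sf3a1, -0.21 for Srsf6, -0.054 for Srsf5, -0.0452 for Hnrnpll, -0.0912 for Sf3b1, -0.21 for Hnrnpdl and -0.14 for Hnrnpa1. With a common sum of FPKM, the log2 fold change was -0.21 for Sf3a1, -0.30 for Srsf6, -0.15 for Srsf5, -0.13 for Hnrnpll, -0.18 for Sf3b1, -0.31 for Hnrnpdl, -0.0801 for Hnrnpu and -0.23 for Hnrnpa1. With a common sum over nuclear-encoded protein-coding genes, the log2 fold change was -0.0486 for Sf3a1, -0.14 for Srsf6, -0.0278 for Sf3b1, -0.15 for Hnrnpdl and -0.0807 for Hnrnpa1. With quantile normalization, the log2 fold change was -0.0196 for Srsf6, -0.0569 for Hnrnpdl and -0.0447 for Hnrnpa1. With array weights, the log2 fold change was -0.13 for Sf3a1, -0.0661 for Srsf6, 0.0474 for Sf3b2, 0.29 for Srsf12 and 0.0103 for Hnrnpa3. In replicates 3 to 6 alone, refitted likewise, the log2 fold change was -0.22 for Hnrnpll, 0.0309 for Sf3b2, -0.10 for Hnrnpdl, 0.0133 for Hnrnpul1 and -0.18 for Hnrnpa1. In replicates 1 and 2 alone, refitted with their own filter and scaling, the log2 fold change was 0.0539 for Hnrnpd, -0.22 for Sf3a1, -0.15 for Srsf6, 0.29 for Sf3a2, -0.0763 for Srsf5, -1.22 for Srsf7, -0.20 for Sf3b1, -1.28 for Sf3a3, -0.0449 for Sf3b3, 0.31 for Srsf2, 0.81 for Srsf12, 0.023 for Hnrnpa3 and 0.20 for Srsf3. Without axonal replicates 1 and 2, the log2 fold change was 0.0213 for Hnrnpd, 0.0236 for Sf3b2, -0.000729 for Hnrnpa1 and 0.0458 for Hnrnpa3. Without axonal replicates 1 and 2 and somatodendritic replicate 4, the log2 fold change was 0.095 for Hnrnpd, -0.15 for Sf3a1, -0.0636 for Srsf6, 0.14 for Sf3b2, -0.12 for Hnrnpa1 and 0.0425 for Hnrnpa3. With copies added to their member, the log2 fold change was -0.13 for Hnrnpdl, 0.0456 for Hnrnpf and 0.28 for Hnrnpa3. With 1 library left out, it lay at -0.073 to 0.23 for Hnrnpa1, -0.16 to 0.0479 for Hnrnpa3, -0.14 to 0.13 for Hnrnpd, -0.0811 to 0.14 for Hnrnpdl, -0.0216 to 0.36 for Hnrnpll, -0.20 to 0.0384 for Hnrnpr, -0.12 to 0.25 for Sf3a1, -0.11 to 0.93 for Sf3a3, -0.20 to 0.0634 for Sf3b2, -0.65 to 0.26 for Srsf12, -0.0972 to 0.17 for Srsf6 and -0.0795 to 0.82 for Srsf7. Leaving out 1 library changed the sign in these 12 members and moved 21 others by over 1.5 times. The median effective number of fragments over the members was under 10 in all libraries but axonal replicate 1, and the part of depth in these changes was not tested.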
